A study of Mus musculus with 9 samples.

Results

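The nuclear genes of oxidative phosphorylation were examined for PBRM1 and BRG1 peaks in wild-type (WT) primary mouse oviductal muscle cells on day 2 (D2) of pregnancy. Members were the protein-coding autosomal genes of the GENCODE M21 annotation whose symbols start with Nduf followed by a, b, c, s or v, with Uqcr, with Cox4 to Cox8 or with Atp5. The rule took 87 gene records, with 86 symbols, of 20807 protein-coding autosomal genes. By symbol, 44 records belonged to complex I, 8 to complex III, 17 to complex IV and 18 to complex V.

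Chromatin immunocleavage sequencing (ChIC-Seq) directs micrococcal nuclease to an antibody's target in fixed cells, and the fragments released by the cuts are sequenced. The labels describe 9 samples, 3 for each of the antibodies to PBRM1 and BRG1 and 3 for IgG, which were not analysed here. All cells were WT and came from mice aged 8 to 12 weeks that had been mated with stud males, and the antibody was the labelled difference between the groups compared. The cells were a filtered digest of whole oviduct plated briefly in culture, and nothing in the labels says whether the replicates came from separate animals, so p-values measure only the spread between these libraries. BRG1 is the motor of the SWI/SNF chromatin remodelers, which slide and evict nucleosomes with the energy of ATP, and PBRM1 (BAF180) is a bromodomain protein found only in the PBAF type of these remodelers.

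Oxidative phosphorylation makes ATP in the inner mitochondrial membrane. Complexes I, III and IV pass electrons from NADH to oxygen and pump protons, complex II feeds in electrons from succinate, and complex V, the ATP synthase, lets the protons flow back. Most subunits are encoded in the nucleus and are made in nearly every cell. A few subunits, mainly of complex IV, exist as paralogues, with a broadly expressed form and forms restricted to heart and skeletal muscle (*Cox6a2*, *Cox7a1*, *Cox8b*), to testis (*Cox6b2*, *Cox7b2*, *Cox8c*) or to lung and oxygen-sensing cells (*Cox4i2*). *Ndufa4l2*, a paralogue of *Ndufa4* induced by low oxygen, was grouped with them, which gives 8 restricted paralogues.

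The promoters shown first are from the *Cox6b*, *Cox7a*, *Cox7b* and *Cox8* paralogue sets, together with the members with the highest signal of complex I (*Ndufa6*) and of complex IV (*Cox6a1*). Those of *Cox4i1*, *Cox4i2*, *Cox6a2*, *Cox8c*, *Ndufa4* and *Ndufa4l2* are not shown. They are RefSeq sequences on GRCm38.p6, read 5′ to 3′ on the strand of the gene, from the bases before the start and without annotated exons. Capitals mark CpG dinucleotides, the sites of DNA methylation. The table of promoters held 68 of the 86 symbols and lacked *Uqcrq* and *Atp5s*, the members with the highest signal of complexes III and V.
*Ndufa6* (chr15:82354323-82354541, minus strand): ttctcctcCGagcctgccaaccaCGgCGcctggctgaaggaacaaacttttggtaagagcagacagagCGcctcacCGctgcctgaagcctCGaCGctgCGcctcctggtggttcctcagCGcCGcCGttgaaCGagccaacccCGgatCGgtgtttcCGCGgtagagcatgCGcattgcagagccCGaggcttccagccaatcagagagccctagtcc
*Cox6a1* (chr5:115348982-115349129, minus strand): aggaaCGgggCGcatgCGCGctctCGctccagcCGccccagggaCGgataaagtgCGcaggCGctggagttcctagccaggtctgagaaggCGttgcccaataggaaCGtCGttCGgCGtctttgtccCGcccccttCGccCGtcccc
*Cox6b1* (chr7:30626152-30626364, minus strand): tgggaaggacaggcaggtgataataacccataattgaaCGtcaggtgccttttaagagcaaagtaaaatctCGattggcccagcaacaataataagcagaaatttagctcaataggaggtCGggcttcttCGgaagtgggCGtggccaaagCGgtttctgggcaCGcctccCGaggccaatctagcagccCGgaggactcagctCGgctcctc
*Cox6b2* (chr7:4753095-4753225, minus strand): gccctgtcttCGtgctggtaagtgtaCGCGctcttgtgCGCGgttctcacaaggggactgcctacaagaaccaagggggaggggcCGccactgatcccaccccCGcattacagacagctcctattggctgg
*Cox7a2* (chr9:79759879-79760103, minus strand): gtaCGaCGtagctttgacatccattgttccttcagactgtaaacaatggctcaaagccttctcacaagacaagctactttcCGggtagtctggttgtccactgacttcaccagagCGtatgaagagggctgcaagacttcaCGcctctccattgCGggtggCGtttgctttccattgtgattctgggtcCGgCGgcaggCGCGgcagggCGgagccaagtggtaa
*Cox7a1* (chr7:30183921-30184143, plus strand): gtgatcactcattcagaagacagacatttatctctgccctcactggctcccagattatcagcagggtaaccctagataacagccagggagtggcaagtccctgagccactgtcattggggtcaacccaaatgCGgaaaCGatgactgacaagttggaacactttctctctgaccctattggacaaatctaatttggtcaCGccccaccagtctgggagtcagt
*Cox8a* (chr19:7217617-7217866, minus strand): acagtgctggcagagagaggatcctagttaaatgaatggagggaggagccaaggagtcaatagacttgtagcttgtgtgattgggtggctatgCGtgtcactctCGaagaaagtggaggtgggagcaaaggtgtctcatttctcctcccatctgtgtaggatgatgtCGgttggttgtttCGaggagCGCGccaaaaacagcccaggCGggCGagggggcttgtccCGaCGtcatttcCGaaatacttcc
*Cox8b* (chr7:140900447-140900696, minus strand): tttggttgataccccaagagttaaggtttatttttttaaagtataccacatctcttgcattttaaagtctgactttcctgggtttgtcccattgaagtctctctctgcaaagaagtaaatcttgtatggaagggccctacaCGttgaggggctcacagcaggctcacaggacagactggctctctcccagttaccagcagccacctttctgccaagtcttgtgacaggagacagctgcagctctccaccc
*Cox7b2* (chr5:71548206-71548455, minus strand): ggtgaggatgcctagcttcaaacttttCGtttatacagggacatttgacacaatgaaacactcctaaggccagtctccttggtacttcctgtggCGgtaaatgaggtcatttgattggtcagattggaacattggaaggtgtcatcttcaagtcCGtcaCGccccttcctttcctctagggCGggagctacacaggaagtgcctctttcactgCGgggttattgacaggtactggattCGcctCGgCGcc

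The printed stretch of *Cox6a1* held 17 CpGs in 148 bases, or 11.5 per 100 bases, and that of *Ndufa6* held 18 in 219 bases, or 8.22 per 100. In the *Cox8* pair, the broadly expressed *Cox8a* held 11 CpGs in 250 bases and the muscle form *Cox8b* held 1 in 250. In the *Cox7a* pair, *Cox7a2* had 5.33 CpGs per 100 bases and the muscle form *Cox7a1* had 1.35. The printed stretches of the *Cox6b* pair, of 213 and 131 bases, did not differ in this way. They held 4.69 CpGs per 100 bases for *Cox6b1* and 5.34 for the testis form *Cox6b2*. In windows of equal length, described below, *Cox6b2* had the lower ratio of observed to expected CpGs. *Cox7b2* had 3.60 per 100 bases.

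A member had a promoter peak in a list when a peak summit lay within 2 kb of the start of any of its annotated transcripts. The strongest such peak was described by its pileup, the number of fragments over the summit, scaled to 1000000 fragments of the library; all levels below are this scaled pileup. Peaks had been called without a control library. The 6 libraries held 14284532 to 23992352 fragments, and the strongest promoter peak of a member held 10 to 64 fragments in a replicate list. A gene without a peak was below the threshold of the peak caller at this depth and may still be bound. In these bulk samples, binding in fewer cells and weaker binding in every cell cannot be told apart.

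Nearly every oxidative phosphorylation promoter had a peak, which is what occupied means in this text. Without a control library, open chromatin cut regardless of the antibody could also be called as a peak. The replicate lists held a promoter peak at 77, 78 and 78 members for PBRM1 and at 79 members in each of the 3 BRG1 lists. The pooled PBRM1 list held 81 of 87 members (93.1%), beside 67.1% of all protein-coding autosomal genes, and the pooled BRG1 list held 82 (94.3%), beside 68.9%. All 3 PBRM1 replicate lists held 73 members, beside 45.3% of all genes, and all 3 BRG1 lists held 77, beside 51.0%. All 6 replicate lists held 71 members (81.6%), beside 42.9% of all genes. Since all genes include many that are silent in this tissue, the same counts were made for other housekeeping genes. All 6 lists held 70 of 78 genes of mitochondrial ribosomal proteins (89.7%) and 56 of 87 genes of cytoplasmic ribosomal proteins (64.4%), so the share among the members lay between those of the ribosomal genes. Without the restricted paralogues and a second record of *Atp5o*, it was 70 of 78 (89.7%), equal to that of the mitochondrial ribosomal proteins.

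**Figure D1:**
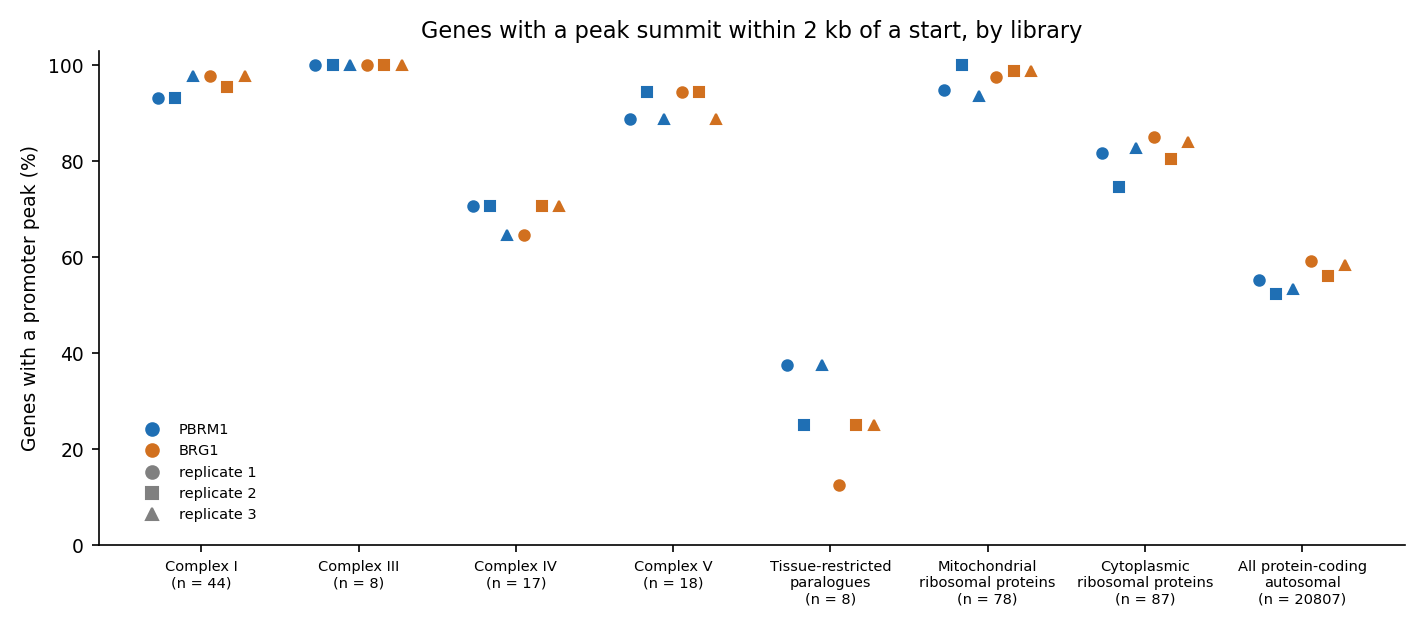
Percent of the genes of each group (vertical axis) with a promoter peak in each of the 6 replicate lists. Points are single libraries, blue for PBRM1 and orange for BRG1; complex III stands at 100% in every library, complex IV between 64.7% and 70.6%, and the restricted paralogues between 12.5% and 37.5%.

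By complex, the difference lay in complex IV. Complex I had 38 of 44 records in all 6 lists and 44 of 44 in both pooled lists. Its 8 assembly factors, *Ndufaf1* to *Ndufaf8*, had a peak in all 6 lists. Of its 27 accessory subunits, *Ndufa4* and *Ndufa4l2* set aside, 22 had a peak in all 6 lists. Complex III had 8 of 8 members in all 6 lists and complex V had 15 of 18. Complex IV had 10 of 17 in all 6 lists and 4 of 17 in none of the 8 lists.

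The members without a peak were restricted paralogues and 1 duplicate gene record. No promoter peak was found for 5 members (5.75%) in any of the 8 lists, beside 28.6% of all genes. They were *Cox6a2* (chr7:128205435-128206387), *Cox7b2* (chr5:71442824-71548205), *Cox8b* (chr7:140898945-140900446), *Cox8c* (chr12:102899316-102900526) and a second record of *Atp5o* that starts inside the gene (chr16:91684398-91926982). The nearest summit to the start of *Cox8b* was 8365 to 18772 bp away in the replicate lists, and that to *Cox7b2* was 46547 to 70788 bp away. For *Cox6a2* the pooled BRG1 list had a summit 2155 bp from the start, just outside the limit. The first record of *Atp5o*, which encodes a stalk subunit of the ATP synthase, had a peak in all 6 lists.

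Of the 8 restricted paralogues, 1 had a promoter peak in all 6 lists, against 70 of the 78 other members once the second *Atp5o* record is left out. All 78 of those members had a promoter peak in both pooled lists. *Cox4i2* had a peak in the pooled BRG1 list only, of 19 fragments, a level of 0.420. Its partner *Cox4i1*, the broadly expressed subunit, had levels of 1.06, 0.993 and 0.834 in PBRM1 replicates 1 to 3 and of 1.70, 1.47 and 1.86 in BRG1 replicates 1 to 3, so every library held it and the BRG1 libraries lay above the PBRM1 libraries.

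*Cox8a* and *Cox6a1* likewise had peaks in every library while their restricted partners had none within 2 kb of a start. *Cox8a* had 1.26, 1.32 and 1.46 with PBRM1 and 2.96, 1.89 and 2.40 with BRG1. *Cox6a1* had 1.87, 1.88 and 1.63 with PBRM1 and 2.52, 3.22 and 2.86 with BRG1, and it was the member of complex IV with the highest mean over the 6 libraries (2.33). The groups did not overlap at either gene.

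*Cox7a1* and *Cox6b2* were restricted paralogues that departed from this pattern. *Cox7a1*, the heart and skeletal muscle form of subunit VIIa, had 1.11, 1.16 and 1.00 with PBRM1 and 1.20, 1.68 and 1.40 with BRG1. Its partner *Cox7a2* had 2.27, 1.71 and 1.58 with PBRM1 and 1.64, 2.10 and 2.79 with BRG1. Each *Cox7a1* library was thus below the *Cox7a2* library of the same sample. No other protein-coding start lay within 5925 bp of the summit at *Cox7a1* in the pooled BRG1 list, 107 bp from the nearest *Cox7a1* start. *Cox6b2*, the testis form of subunit VIb, had 0.606, 0.552 and 0.500 with PBRM1 and 0.980 and 0.931 in BRG1 replicates 2 and 3, with no peak in BRG1 replicate 1. These were weak peaks, of 12, 10 and 12 fragments with PBRM1 and of 14 in each of those BRG1 lists. Their summits lay 154, 645 and 665 bp from the start of the principal transcript with PBRM1 and -56 and -39 bp with BRG1. The broadly expressed *Cox6b1* had 1.57, 1.93 and 1.54 with PBRM1 and 1.70, 1.96 and 1.93 with BRG1, above *Cox6b2* in every library.

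*Ndufa4l2* had a promoter peak in PBRM1 replicates 1 and 3 (1.26 and 1.42) and in both pooled lists, but its summits stood at the limit of the rule. They lay 1977 and 1970 bp from the start in those replicates and 2106 bp in PBRM1 replicate 2, which was therefore not counted, and at 2901 bp or more in the BRG1 replicates. *Ndufa4*, whose product is a subunit of complex IV, had 0.960, 1.16 and 0.959 with PBRM1 and 2.14, 1.82 and 1.80 with BRG1. The 3 *Atp5g* genes, which encode the same mature subunit c of the ATP synthase ring, were all occupied in every library, at mean levels of 2.59 for *Atp5g1*, 2.45 for *Atp5g2* and 1.38 for *Atp5g3* over the 6 libraries.

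**Figure D2:**
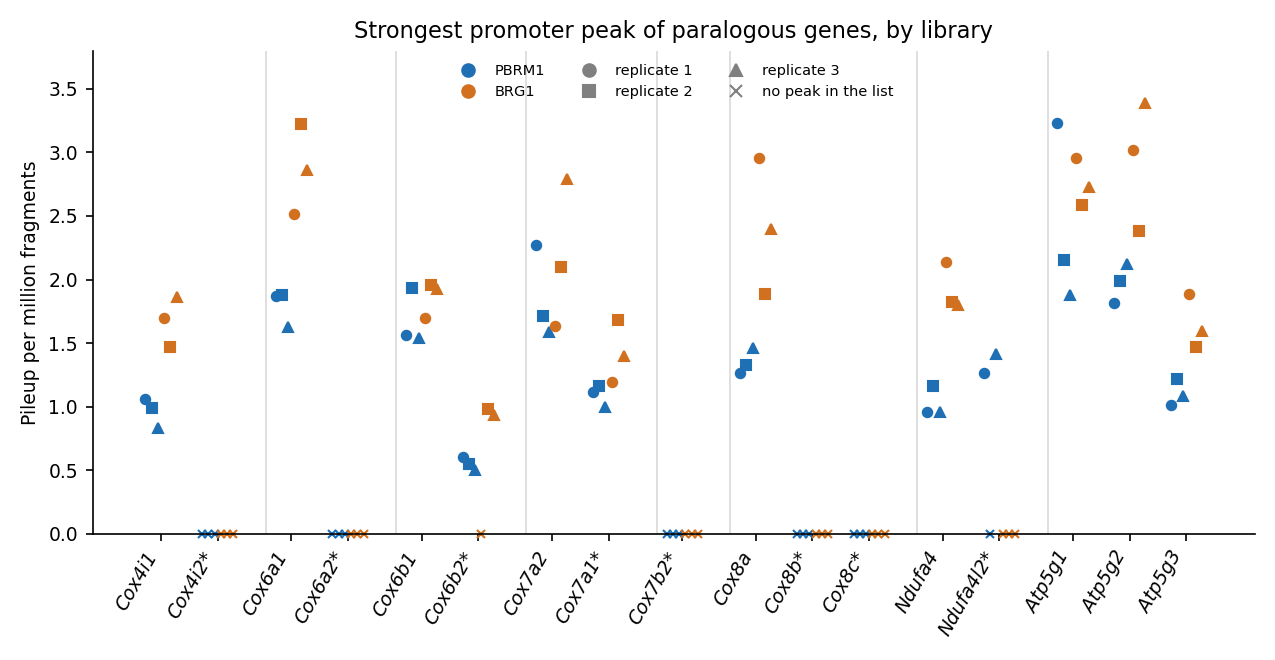
Scaled pileup (fragments per 1000000) at the strongest promoter peak (vertical axis) of the paralogous members, with 1 point for each library, blue for PBRM1 and orange for BRG1. Crosses on the axis mark libraries without a peak, asterisks mark restricted paralogues, and *Cox7a1* is the single restricted paralogue with points in all 6 libraries.

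A further 8 members had a promoter peak in 4 or 5 of the 6 lists. *Atp5k*, *Ndufa7* and *Ndufb3* had 4, and *Ndufa9*, *Ndufb10*, *Cox6c*, *Atp5l* and *Ndufc2* had 5; all had a peak in both pooled lists. With 4 lists stood 3.45% of the members, beside 4.57% of all genes. With 5 lists, *Cox6b2* included, stood 6.9%, beside 7.21%. The missing lists were mainly of PBRM1. Of all genes, too, fewer had a peak in all 3 PBRM1 lists (45.3%) than in all 3 BRG1 lists (51.0%). *Ndufb3*, an accessory subunit of complex I, had a peak of 0.792 in PBRM1 replicate 3 only, and of 1.45, 1.12 and 1.40 with BRG1. *Ndufa7* had 0.792 in PBRM1 replicate 3 and 1.26, 1.19 and 1.20 with BRG1. A BRG1 list was missing at *Ndufb10*, with 1.47, 1.27 and 1.42 in the PBRM1 lists and no promoter peak in BRG1 replicate 2, and at *Atp5k*, which had a peak in 2 lists of each antibody. Occupancy by a single protein, with a peak in each of the 3 lists of PBRM1 or of BRG1 and no list of its counterpart, was found at 0 members, beside 0.807% of all genes.

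Where the members were occupied, their signal was near or somewhat above the middle of all occupied promoters. Among the 71 members with a peak in all 6 lists, the median level per library was 1.30 ± 0.118 with PBRM1 and 2.03 ± 0.0631 with BRG1 (SD, n = 3 each). For all 8926 protein-coding autosomal genes with a peak in all 6 lists, the median was 1.30 ± 0.118 with PBRM1 and 1.99 ± 0.0885 with BRG1 (SD, n = 3 each). The medians of members and of all genes were equal in all 3 PBRM1 libraries because pileups are whole fragments. In each list, ranked among all genes with a promoter peak, the median member stood between percentile 50.7 and 60.3 in the replicate lists, with 2 to 8 members in the top decile, and at 64.6 and 63.9 in the pooled PBRM1 and BRG1 lists. The median fold enrichment over local background was higher for the members than for all genes with a promoter peak in each of the 8 lists, for instance 5.19 against 4.535 in the pooled PBRM1 list and 6.73 against 5.48 in the pooled BRG1 list, differences that were not tested.

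Between complexes the median levels differed, with complex V above complex III in every library, a difference that was not tested. The median with PBRM1 was 1.34 ± 0.131 for complex I, 1.155 ± 0.148 for complex III, 1.31 ± 0.0891 for complex IV and 1.36 ± 0.0712 for complex V (SD, n = 3 each). With BRG1 it was 2.04 ± 0.0828, 1.81 ± 0.346, 1.94 ± 0.111 and 2.27 ± 0.111 in the same order. The 8 complex I assembly factors had 1.14 ± 0.132 with PBRM1 and 1.67 ± 0.0735 with BRG1, below complex I as a whole in every library.

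The highest means over the 6 libraries belonged to *Atp5s* (3.11), *Atp5g1* (2.59), *Atp5d* (2.52), *Ndufa6* (2.455) and *Atp5g2* (2.454). *Atp5s*, a protein related to coupling factor B of the ATP synthase, had 3.23, 2.37 and 2.17 with PBRM1 and 3.46, 3.57 and 3.86 with BRG1, so that each BRG1 library was above each PBRM1 library. *Atp5d*, subunit delta of the ATP synthase, had 2.17, 1.93 and 1.46 with PBRM1 and 3.02, 3.08 and 3.46 with BRG1. *Ndufa6* had 1.72, 1.77 and 1.88 with PBRM1 and 2.89, 3.15 and 3.33 with BRG1.

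The lowest means were those of *Ndufs4* (0.864), *Ndufb8* (0.9525), *Cox7c* (0.953), *Atp5f1* (0.981) and *Uqcrb* (0.997). *Ndufs4*, an accessory subunit of complex I, had 0.808, 0.717 and 0.792 with PBRM1 and 0.755, 0.980 and 1.13 with BRG1, and the groups overlapped. *Cox7c*, a small subunit of complex IV, had 0.909, 1.05 and 0.834 with PBRM1 and 0.944, 1.05 and 0.931 with BRG1, again with overlap. From *Ndufs4* to *Atp5s* the mean levels of members with a peak in all 6 lists thus spanned 0.864 to 3.11, whereas those of all such genes spanned 0.578 to 134.8.

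To ask whether any member favored one protein, log2 scaled pileup was compared between antibodies by limma over the 8926 genes with a promoter peak in all 6 lists, with Benjamini-Hochberg adjustment over all of them. BRG1 was higher at 55 of the 71 members at an adjusted p below 0.05 (77.5%), beside 75.2% of all genes tested, and PBRM1 was higher at 0 members, beside 0.101% of all genes. At an unadjusted p below 0.05 the counts were 56 members, beside 78.5% of all genes, and 0, beside 0.112%. Every BRG1 library lay above every PBRM1 library at 51 members (71.8%), beside 73.5% of all genes, and the reverse held at 0 members, beside 0.123%. The median log2 difference was 0.59 for the members and 0.59 for all genes. The shift was thus shared with the other promoters, and a difference in binding and a difference in library scale between the antibodies cannot be told apart. On the authors' fold enrichment, the ratio of the same pileup to the local background, limma called 10 of 71 members higher with BRG1, beside 15.7% of all genes, and 0 higher with PBRM1, beside 0.213%.

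With each library centred on its median over all genes tested, so that values are relative to other promoters, limma called 0 members higher with BRG1, beside 0.190% of all genes, and 1 member higher with PBRM1, beside 0.459%. At an unadjusted p below 0.05 these counts were 0, beside 5.86% of all genes, and 7, beside 8.47%. The member was *Uqcrb* (chr13:66900617-66905378, minus strand), which encodes a subunit of complex III next to the site where ubiquinone binds. It had 1.26, 1.10 and 0.917 with PBRM1 and 1.13, 0.770 and 0.798 with BRG1, and it was the single member of the 71 with a lower mean log2 level with BRG1. Its log2 difference, BRG1 over PBRM1, was -0.29 ± 0.20 (SE, n = 3 each; limma, adjusted p = 0.168) in scaled pileup and -0.90 after centring (limma, adjusted p = 0.0113). The centred call was lost without PBRM1 replicate 1 (adjusted p = 0.0538, limma), without BRG1 replicate 2 (0.0762) or without BRG1 replicate 3 (0.0811), with log2 differences of -0.83, -0.84 and -0.80, and it was kept without each of the other 3 libraries and with the replicate number as a block (limma, adjusted p from 0.00408 to 0.0419). The start of *Gm10767*, on the other strand, lies 37 bp upstream of a *Uqcrb* start, so the peak cannot be assigned to 1 of these genes. The strongest summits lay 320, 376 and -34 bp from the principal start with PBRM1 and 36, 24 and 355 bp with BRG1. The levels compared are therefore not all from the same position.

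The 10 members with the largest difference toward BRG1 had log2 differences from 0.86 to 0.95 in scaled pileup (limma, adjusted p from 0.000286 to 0.000907). Of these, 6 belong to complex I or its assembly: *Ndufv3*, *Ndufaf6*, *Ndufaf8*, *Ndufb8*, *Ndufs6* and *Ndufc1*. By symbol, complex I held 38 of the 71 members tested, *Ndufa4* among them. *Ndufv3*, a small flavoprotein subunit, had 1.67, 1.49 and 1.54 with PBRM1 and 2.96, 2.80 and 3.33 with BRG1, a log2 difference of 0.95 ± 0.18 (SE; limma, adjusted p = 0.000286). Its strongest summits lay -141, 19 and -144 bp from the principal start with PBRM1 and -18, 11 and -14 bp with BRG1. These levels, too, are not all from the same position. *Ndufaf6*, an assembly factor, had 0.960, 0.883 and 0.709 with PBRM1 and 1.38, 1.96 and 1.53 with BRG1. The groups did not overlap at either gene.

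The other 4 were *Ndufa4*, which the counts by symbol place in complex I, *Uqcr11*, *Cox7a2l* and *Atp5c1*. *Cox7a2l*, an assembly factor of respiratory supercomplexes, had 0.808, 1.21 and 0.792 with PBRM1 and 2.01, 1.68 and 1.46 with BRG1, a log2 difference of 0.89 ± 0.20 (SE; limma, adjusted p = 0.000827). *Atp5c1*, subunit gamma of the rotating stalk, had 1.57, 1.43 and 1.25 with PBRM1 and 2.89, 2.31 and 2.59 with BRG1. After centring none of the 10 passed the threshold, and their centred log2 differences were 0.25 to 0.34 (limma, adjusted p from 0.349 to 0.524). In the pooled BRG1 list the summits at *Ndufa4* and *Ndufaf8* lay nearer the start of a neighbor, *Phf14* and *Tepsin*, than their own. In the pooled PBRM1 list this held for *Ndufv3* too, with its summit 0 bp from a start of *Wdr4* and 141 bp from its own.

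At the other end, and singled out after their values were seen, *Ndufv1*, *Cox7c*, *Ndufa12* and *Cox6b1* had log2 differences of 0.03, 0.07, 0.07 and 0.15 (limma, adjusted p from 0.433 to 0.864). *Ndufv1*, the core subunit that binds NADH and flavin mononucleotide, had 2.375, 2.21 and 1.92 with PBRM1 and 2.202, 2.10 and 2.33 with BRG1, so the groups overlapped. Each of these 4 was on the PBRM1 side after centring, with log2 differences from -0.58 to -0.46, and none passed the threshold (limma, adjusted p from 0.096 to 0.205).

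**Figure D3:**
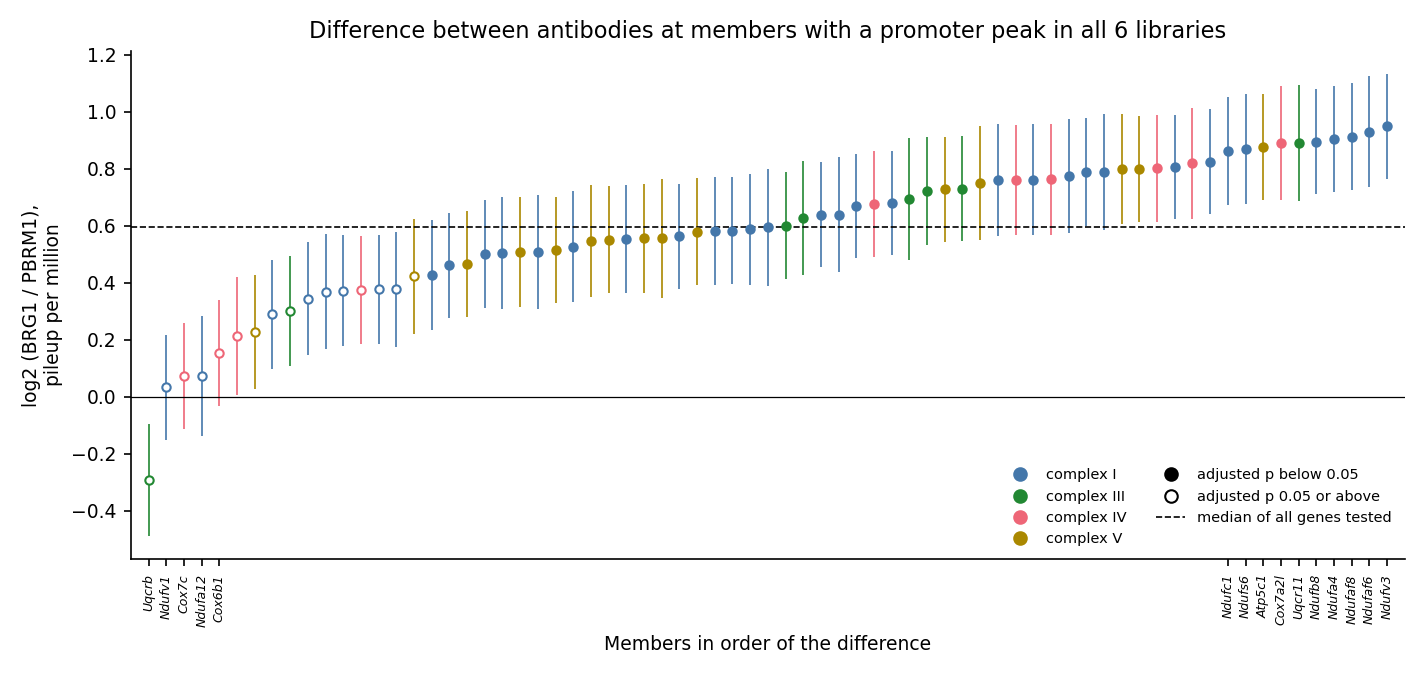
The log2 difference of BRG1 over PBRM1 in scaled pileup (vertical axis, with the standard error from limma) for the 71 members with a promoter peak in all 6 libraries, ordered by value and colored by complex, with symbols given for the 5 lowest and the 10 highest values. Filled points have an adjusted p below 0.05, the dashed line is the median of all 8926 genes tested at 0.59, and *Uqcrb* is the single point below 0.

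The peaks called with both antibodies lay at the same place, over the start. At the 81 members with a promoter peak in both pooled lists, the strongest PBRM1 peak and the strongest BRG1 peak overlapped at 81 (100%), beside 91.1% of the 13537 genes with both, and their summits were a median of 23 bp apart, beside 50 bp. Per replicate list, 76.8 ± 3.46% of member summits with PBRM1 and 78.5 ± 1.25% with BRG1 lay within 250 bp of the start of the principal transcript (SD, n = 3 each), beside 58.9 ± 0.656% and 63.2 ± 0.608% of all genes with a promoter peak. Member peaks were also wider. Their median length was 612.7 ± 33.2 bp with PBRM1 and 658.3 ± 45.7 bp with BRG1 (SD, n = 3 each), against 493 ± 11.4 bp and 530 ± 22.1 bp for all genes. All 6 libraries showed both differences, which were not tested.

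**Figure D4:**
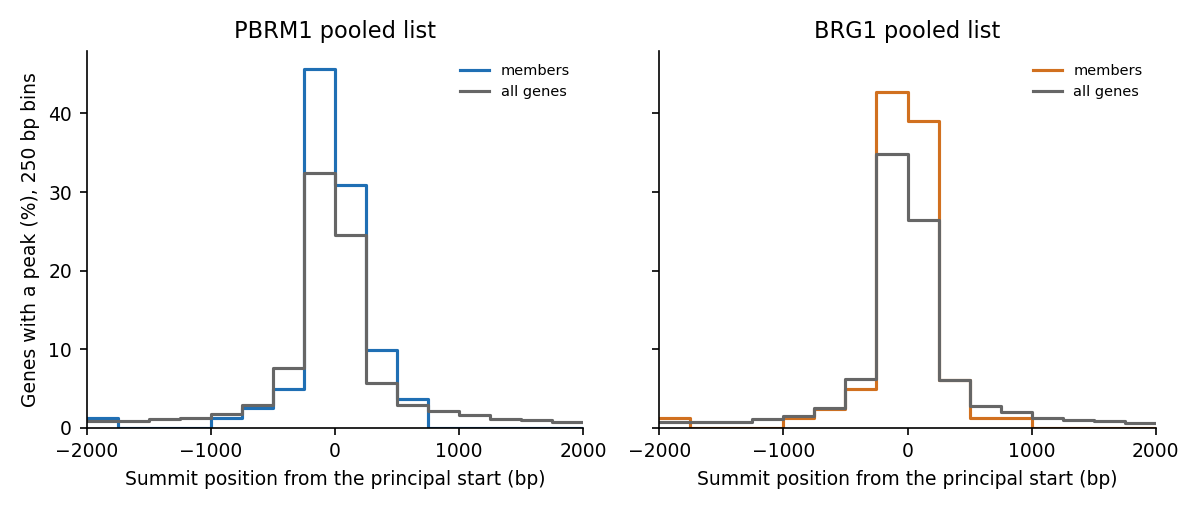
Position of the strongest promoter summit relative to the principal start (horizontal axis, bp, negative upstream) in the pooled PBRM1 and pooled BRG1 lists, as the percent of genes with a peak in 250 bp bins. Summits within 250 bp of the start account for 76.5% of the members and 57.0% of all genes with PBRM1, and for 81.7% and 61.2% with BRG1.

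A further feature that the rule did not use was the presence of a neighbor on the other strand. A start of another protein-coding gene on the opposite strand lay within 1 kb of a start of 31 of the 87 members (35.6%), beside 12.7% of all protein-coding autosomal genes. Such pairs included *Ndufs1* with *Eef1b2*, *Ndufb5* with *Mrpl47*, *Ndufs6* with *Mrpl36* and *Atp5j* with *Gabpa*, the gene of a subunit of nuclear respiratory factor 2. Of these 31 members, 29 had a peak in all 6 lists, and of the 56 others 42 did. The others included the second *Atp5o* record, without a peak, and all 8 restricted paralogues, of which 1 had a peak in all 6 lists. Whether a neighbor goes with a peak was not tested. At such pairs a peak cannot be assigned to one gene, and in the pooled lists the summit lay nearer the start of another gene at 11 of 82 members with BRG1 and 13 of 81 with PBRM1. Levels were close whether or not a neighbor was present, with medians of 1.30 ± 0.151 and 1.31 ± 0.106 for PBRM1 and 2.06 ± 0.0236 and 2.01 ± 0.107 for BRG1 (SD, n = 3 each).

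The sequence at the start separated the restricted paralogues from most other members. In the 300 bases from 250 before to 50 after the principal start, the median ratio of observed to expected CpGs was 0.801 for the members, 0.368 for the 8 restricted paralogues and 0.573 for all protein-coding autosomal genes. A ratio above 0.6 was found at 64 of the 87 members (73.6%), at 48.0% of all genes and at 0 of the 8 restricted paralogues. Of the 71 members with a peak in all 6 lists, 58 were above 0.6 (81.7%), beside 75.9% of all genes with such peaks. Members below 0.6 with a peak in all 6 lists included *Atp5j2* (0.104), *Atp5f1* (0.217), *Ndufa5* (0.327) and *Ndufs4* (0.377). The ratio was 0.842 for *Cox8a* and 0.115 for *Cox8b*, and 1.03 for *Cox6a1* and 0.140 for *Cox6a2*. In the *Cox6b* pair, too, it was higher for the broadly expressed form, at 0.713 for *Cox6b1* and 0.432 for *Cox6b2*. It did not set the occupied restricted paralogues apart from the others, since *Cox7a1* had 0.304 and *Cox6b2* had 0.432 whereas *Cox7b2*, without a peak, had 0.564.

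**Figure D5:**
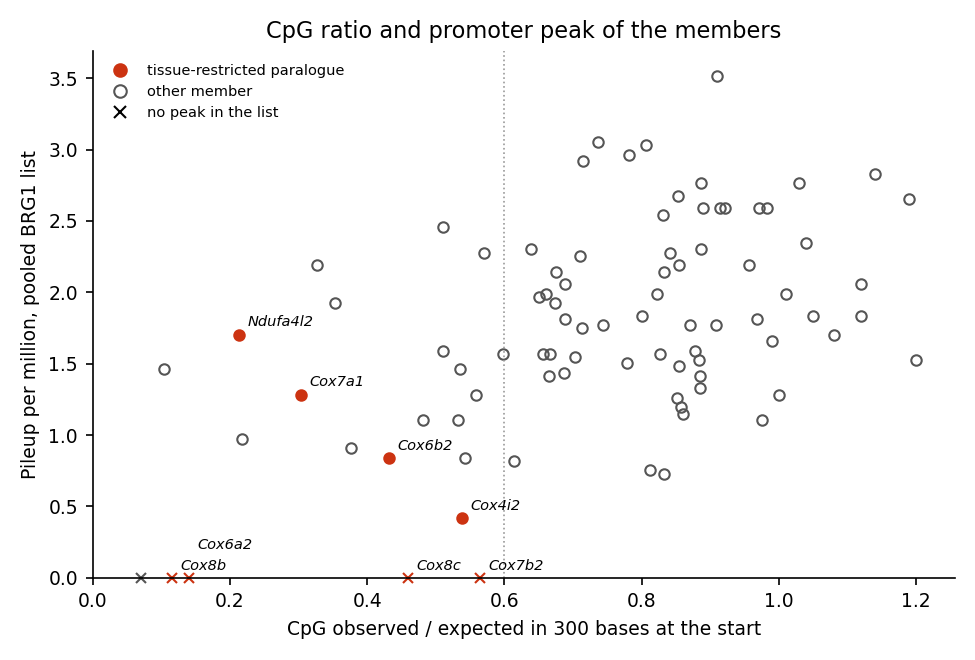
Ratio of observed to expected CpGs in the 300 bases at the principal start (horizontal axis) against scaled pileup in the pooled BRG1 list (vertical axis), with 1 point for each of the 87 members. Red marks are the 8 restricted paralogues, which all lie left of the dotted line at 0.6, and crosses stand for members without a peak.

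Matches to the motifs of known regulators of these genes were counted in the same window on both strands, as a description. The motif of nuclear respiratory factor 1 (NRF1, GCGCANGCG) was found at 15 members (17.2%), beside 8.51% of all genes and 15.3% of genes with a peak in all 6 lists. CCGGAAGT, the motif of GABP (nuclear respiratory factor 2), was at 6 members (6.90%), beside 5.13% of all genes and 9.27% of those with a peak in all 6 lists. AANATGGCG, that of YY1, was at 6 (6.90%), beside 3.14% and 5.49%. TCAAGGTCA, that of the estrogen-related receptors, was at 1 member, *Atp5g3*, beside 0.404% and 0.314%. GGGCGG, that of SP1, was at 34 members (39.1%), beside 46.2% of all genes and 65.7% of those with a peak in all 6 lists, and TGACGTCA, that of CREB, at 4 (4.60%), beside 2.48% and 3.88%. Among the printed promoters *Cox6a1* held NRF1 matches that start 162, 161 and 117 bases before the RefSeq start, of which the first 2 overlap on opposite strands. The 8 restricted paralogues had 0 matches to the motifs of NRF1, GABP or YY1, beside 15.2% of all genes with a match to any of the 3, and 4 of the 8 held the SP1 motif.

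Promoter peaks were also found at most other genes of the pathway, beside 42.9% of all protein-coding autosomal genes with a peak in all 6 lists. *Sdha*, *Sdhb*, *Sdhc* and *Sdhd*, the 4 subunits of complex II, had a promoter peak in all 6 lists. *Cycs*, the somatic cytochrome c, had a peak in all 6 lists, at 2.375, 1.99 and 2.08 with PBRM1 and 3.84, 2.87 and 3.46 with BRG1, whereas *Cyct*, the testis cytochrome c, had none in the 8 lists. Of 21 assembly factors outside the rule, 19 had a peak in all 6 lists, and *Surf1* had 5 and *Atpaf1* had 4. Of 12 regulators of mitochondrial genes, 10 had a peak in all 6 lists. *Ppargc1a* and *Ppargc1b*, the coactivators that drive mitochondrial biogenesis, had 5 each and lacked a peak in PBRM1 replicate 2. *Esrra*, an estrogen-related receptor, had the highest levels of these regulators, with 3.99, 3.75 and 2.92 for PBRM1 and 6.48, 5.11 and 6.52 for BRG1. Of the 3 X-linked subunits, *Ndufb11* had a peak in all 6 lists, *Ndufa1* in 5 and *Cox7b* in the pooled lists only.

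The labelled cell type was checked at marker promoters, where a peak is not a measure of expression. Of 7 smooth muscle markers 4 had a peak in all 6 lists (*Acta2*, *Tagln*, *Mylk*, *Smtn*), *Des* in 4, *Myh11* in 1 and *Cnn1* in none. Of 7 epithelial, 3 fibroblast, 2 endothelial and 1 immune marker, 0 had a peak in all 6 lists (42.9% of all protein-coding autosomal genes did), and *Cdh1*, *Pdgfra* and *Dcn* had 3 each. The pooled lists were less selective. The pooled PBRM1 list held 6 of 7 smooth muscle, 4 of 7 epithelial and 3 of 3 fibroblast markers, and the pooled BRG1 list held 6 of 7, 6 of 7 and 3 of 3. Both pooled lists held 1 of 2 endothelial markers and lacked the immune marker. The part of other cell types in the member peaks was not tested.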

How the data were processed

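The labels describe 9 samples. Peak lists of the 3 PBRM1 and 3 BRG1 libraries and of each antibody's pooled replicates were used. Per the file headers, the authors called peaks with MACS 2.2.7.1 on paired-end fragments, all fragments kept, with an effective genome size of 2300000000 bp, a q cutoff of 0.05, no control library and local background over 10000 bp; the submitters' processing notes name cutadapt, Bowtie2, MACS2 and GRCm38.p5. Without a control, open chromatin cut regardless of the antibody could be called. The deposited pileup is the signal (fragment coverage) at the summit, unscaled between libraries, fold enrichment is the authors' ratio to local background, and q is deposited as −log10 q. Peak length in bp is as deposited.

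Here, pileup was scaled to 1000000 fragments by the header's total. Starts came from GENCODE M21 and sequence from GRCm38.p6; 0 autosomal peaks ended beyond their chromosome. limma 3.58.1 (R 4.3.3) was fitted to log2 values without a pseudocount, over all genes with a promoter peak in all 6 lists, and checked on simulated data. Tables used Python 3.11.15, numpy 2.4.6, pandas 2.3.3, pysam 0.24.0 and samtools 1.23.1. Named were members without peaks, paralogue sets, the 5 highest and 5 lowest means and up to 10 members per direction past the threshold. Members and lists were chosen with earlier results of these data known. Alternatives changed the distance, the starts, the q minimum, the number of peaks, the scaling and the libraries included. The p-values rest on 3 libraries against 3. The counts hold 1 member whose own values are not reported here.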

Additional observations from a re-analysis of the deposited data

How the results depend on the processing

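The counts of members with a promoter peak changed by less than 1.5 times under every alternative tried. They were 78 to 81 for the pooled PBRM1 list, 81 for the pooled BRG1 list under each alternative, and 52 to 71 for all 6 lists, the lowest at a −log10 q of at least 5 (beside 28.1% of all genes), and 71 to 73 without one of the 6 libraries. The 55 members called higher with BRG1 became 10 on fold enrichment and 0 after median centring, where 1 was higher with PBRM1. Leaving out one library gave 39 to 55 members higher with BRG1 (beside 58.4% to 72.9% of all genes, and 59.4% where members were fewest) and 0 with PBRM1 each time. Centring without one library in turn, chosen after seeing the data, gave 0 with BRG1 and 0 to 1 with PBRM1. After centring, *Cox6b1*, *Ndufa12*, *Cox7c* and *Ndufv1* changed sign, to -0.46, -0.54, -0.54 and -0.58 on the log2 scale, and on fold enrichment *Cox6b1*, *Ndufa12* and *Ndufv1* were at -0.15, -0.19 and -0.29. Leaving out one library gave -0.14 (without PBRM1 replicate 3) to 0.25 for *Ndufa12*, -0.0042 (without PBRM1 replicate 3) to 0.16 for *Cox7c* and -0.052 (without PBRM1 replicate 3) to 0.10 for *Ndufv1*, and without BRG1 replicate 3 *Ndufa12* and *Ndufv1* were at -0.11 and -0.0050. The cause of these changes was not tested beyond the construction of each alternative.

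Same-numbered libraries of the antibodies did not deviate together (correlation over genes -0.0118, 0.0205 and -0.0142), so the numbers were not taken to pair them. With the replicate number as a replicate block, 54 members were higher with BRG1 (beside 73.7% of all genes) and 0 with PBRM1 (beside 0.0896%), and with centring and the replicate block 0 (beside 0.291%) and 1 (beside 0.784%). The low pileups, of 10 to 64 fragments per member and library, limit how small a difference can be seen.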
